A study of Mus musculus with 24 samples.

Results

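A set of 42 genes that build ribosomes was followed across 24 mRNA-seq libraries of mouse embryonic fibroblasts (MEFs), which are connective tissue cells grown out of mouse embryos. The genes were chosen by a written list of names covering RNA polymerase I and the nucleolar factors that process ribosomal RNA, and all 42 were found among the 55487 genes of the table. Each of them passed the filter on low counts, and the lowest level of any of the 42 in any library was 20.6 CPM, the gene's counts scaled to a common library total. By role, 4 belong to RNA polymerase I and its initiation factors, 3 to box C/D and 4 to box H/ACA small nucleolar ribonucleoproteins (snoRNPs), 5 are abundant nucleolar scaffold proteins and helicases, 14 assemble the small subunit and 12 the large subunit.

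Ribosome assembly begins in the nucleolus, where RNA polymerase I transcribes a long precursor of the ribosomal RNAs. Box C/D snoRNPs methylate this precursor and box H/ACA snoRNPs convert some of its uridines to pseudouridine, while the small subunit processome and the large subunit assembly factors cut, fold and export the 2 subunits. MTOR complex 1 is known to favour this programme when nutrients are plentiful, and AMPK, a kinase activated when cellular energy is low, is known to oppose it. The MYC protein is a known activator of many of the same genes, through the DNA sequence CACGTG (the E-box), which is also part of the sites that TFEB and TFE3 bind.

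The libraries came from wild-type (WT) cells and from *tfeb tfe3* double-knockout (DKO) cells, which lack the transcription factors TFEB and TFE3, master regulators of lysosomal genes. Cells of each genotype received the solvent DMSO, the MTOR inhibitor torin1 (Torin-1 in the labels) or the AMPK activator MK-8722 (MK8722 in the labels), with 4 libraries in each of the 6 groups. Each group held 1 library from each of 4 passages, 7, 8, 9 and 11 in WT and 8, 9, 10 and 11 in DKO, so that the p-values measure the spread between passages of 1 line per genotype, and the genotype cannot be told apart from the line. The labels assign all libraries to 1 batch and give neither a dose nor an exposure time. The values are relative levels in bulk cultures, in which fewer cells of a kind and less RNA per cell cannot be told apart.

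The libraries held 24668870 to 33332507 counts each, and RNA integrity numbers ran from 9.7 to 9.9 apart from 1 library at 7.9 (DKO with MK-8722, passage 10). Fibroblast genes were abundant, with group means of 903 to 2382 CPM for *Col1a1* and 2348 to 3342 CPM for *Vim*, although *Thy1* stood near 3 CPM in the WT groups and at 0 in 11 of the 12 DKO libraries. Among genes listed for other cell types, group means were up to 0.657 CPM for *Epcam* (epithelial), 0.276 CPM for *Pecam1* (endothelial) and 0.0582 CPM for *Ptprc* (immune). The filter on low counts was passed by 2 of 2 epithelial, 1 of 2 immune and 0 of 2 endothelial genes listed. Not all listed markers of other cells were therefore absent. Of the listed fibroblast genes, 11 of 12 passed it. *Tfeb* was at 20.9 to 24.97 CPM in the WT libraries with DMSO and at 1.95 to 2.65 CPM in the DKO libraries with DMSO. *Tfe3* was at 119 to 122 CPM in the former and 121 to 126 CPM in the latter, and counts summed over a whole gene do not show whether the transcript still encodes the protein. For the ribosome biogenesis genes the earliest passage was often the highest of its group in both lines. Passage 8 of the DKO line was highest for 40 of 42 genes with DMSO, 41 with MK-8722 and 37 with torin1. Passage 7 of the WT line was highest for 25, 35 and 38 genes with the same treatments. Passage 11 of the DKO line was lowest for 42 genes with DMSO and 32 with MK-8722. Each comparison that rests on the DKO libraries of passage 8 was also computed without them, while those of WT passage 7 were left out only 1 at a time.

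The promoters of the genes were searched for the E-box because the knocked-out factors and MYC both recognise it. RefSeq windows of 300 bases on GRCm38.p6, from 250 bases before to 50 after the start, were matched for 37 of the 42 genes, all but *Fbl*, *Npm1*, *Rrp12*, *Rrs1* and *Bop1*. CACGTG (the same on both strands) occurred in windows of 8 of these 37 genes (21.6%), compared with 8.09% of all 27025 genes with a window. Counted by window, it was in 17.4% of the 46 windows of these genes and in 7.15% of all 32851 windows. The E-boxes are shown with their flanks because they fall close to the start sites of polymerase, small subunit and large subunit genes, with the motif in capitals and the position of its first base counted from the transcript start.
*Ltv1*, chr10:13193092-13193121, minus strand, first capital at +29: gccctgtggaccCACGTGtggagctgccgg
*Nop2*, chr6:125131811-125131840, plus strand, first capital at -60: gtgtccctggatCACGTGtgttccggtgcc
*Pes1*, chr11:3963965-3963994, plus strand, first capital at +3: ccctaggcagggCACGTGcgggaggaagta
*Pno1*, chr11:17211540-17211569, minus strand, first capital at +38: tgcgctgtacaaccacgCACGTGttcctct
*Rrn3*, chr16:13780472-13780501, plus strand, first capital at -215: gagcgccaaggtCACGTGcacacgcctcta
*Rrn3*, chr16:13780639-13780668, plus strand, first capital at -48: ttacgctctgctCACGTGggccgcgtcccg
*Tsr1*, chr11:74898092-74898121, plus strand, first capital at +25: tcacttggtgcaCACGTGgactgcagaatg
*Utp20*, chr10:88826765-88826794, minus strand, first capital at +38: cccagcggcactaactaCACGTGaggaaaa
*Wdr43*, chr17:71616220-71616249, plus strand, first capital at +18: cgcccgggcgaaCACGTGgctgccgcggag
*Rrn3* was the only one of these genes with 2 E-boxes in its window, and in *Pes1*, *Ltv1*, *Pno1*, *Tsr1*, *Utp20* and *Wdr43* the motif lay after the start. A match to these letters is a description of the window and does not show that a factor binds there.

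The genes differed widely in transcript level. On the length-corrected TPM scale, which allows genes to be compared, in WT with DMSO *Npm1* was highest at 2593 ± 107 TPM (SD, n = 4), followed by *Ncl* at 801 ± 14.5 TPM, *Nop56* at 544 ± 23.02 TPM and *Nop58* at 372 ± 15.8 TPM, each separated from the next by more than their SDs. *Fbl* at 308 ± 11.2 TPM and *Nolc1* at 298 ± 9.37 TPM did not differ beyond their spread. The same held for most neighbours among the middle ranks, from *Bop1* at 192 ± 3.56 TPM to *Rrp12* at 46.5 ± 1.40 TPM. *Polr1b* at 37.0 ± 1.75 TPM and *Noc3l* at 28.6 ± 1.09 TPM were the lowest.

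The genes were spread over 18 chromosomes. Annotated snoRNAs lay within 8 of the 42 genes, 23 in all, compared with 279 (1.27%) of 22028 protein-coding genes. *Nop56* hosted 5 of them, *Nop58* 4, and *Ncl*, *Gnl3* and *Wdr43* 3 each. In 9 genes more than 5% of the 52-base stretches of the transcripts also occurred in other genes, with 28.8% for *Tsr1*, which overlaps *Srr* on the opposite strand, and 23.9% for *Npm1*, which shares them with 10 pseudogenes. Reads from such stretches could be assigned to either gene, and how much this moved the counts was not measured. The strand setting of the counting was not given in the sources used here, so reads of *Tsr1* and *Srr* may not have been told apart where they overlap. *Ncl* had 78.5 to 80.7% of its counts on transcripts annotated as retaining an intron.

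The first comparison asked what torin1 did to these genes in WT cells. Torin1 lowered 31 of the 42 genes and raised 0 of them. A gene counted as lower or higher when edgeR's quasi-likelihood test gave it an adjusted p below 0.05 and it changed at least 1.2-fold, and by this rule 20.5% of all 15401 genes tested were lower and 26.6% higher. The median log2 fold change was -0.41 over the 42 genes and 0.05 over all genes, and 39 of the 42 were below 0. Calls covered every role, with 3 of 4 RNA polymerase I genes, 3 of 3 box C/D and 4 of 4 box H/ACA genes, 3 of 5 scaffold genes, 10 of 14 small subunit genes and 8 of 12 large subunit genes lower. By library, 33 genes were lower in all 4 torin1 libraries than in any DMSO library and 1 (*Npm1*) was higher, compared with 25.7% and 28.4% of all genes. *Npm1* alone was higher at an unadjusted p under 0.05, and its edgeR adjusted p was also below 0.05, but it rose by less than 1.2-fold. DESeq2 and limma-voom also called 0 higher.

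In *tfeb tfe3* DKO cells torin1 lowered 25 of the 42 genes and raised 0, compared with 20.2% and 23% of all genes. The median log2 fold change was -0.30, and that of all genes was 0.02. Again *Npm1* alone was higher at an unadjusted p under 0.05, with an edgeR adjusted p also below 0.05, but by less than 1.2-fold. DESeq2 and limma-voom called 0 higher. By role, 1 of 4 RNA polymerase I genes, 3 of 3 box C/D and 3 of 4 box H/ACA genes, 2 of 5 scaffold genes, 7 of 14 small subunit genes and 9 of 12 large subunit genes were lower. All 4 DKO libraries with torin1 were below all 4 with DMSO for 21 genes (26.1% of all genes) and above them for 1 (26.7%). The calls in the 2 genotypes shared 22 genes, which is 71.0% of the WT calls and 88.0% of the DKO calls. *Nat10*, *Ncl* and *Wdr12* passed in DKO alone and 9 genes passed in WT alone, which does not show that their responses differed.

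Among the RNA polymerase I genes, *Rrn3* (chr16:13780708-13814839, plus strand), the initiation factor through which growth signals reach the polymerase, was at 116, 109, 114 and 116 CPM in the 4 WT libraries with DMSO and at 81.1, 83.8, 90.6 and 87.0 CPM with torin1. In DKO cells it was at 127, 147, 137 and 142 CPM with DMSO and 94.9, 98.5, 100.1 and 104 CPM with torin1. The torin1 libraries lay below the DMSO libraries without overlap in both genotypes, with log2 fold changes of -0.41 ± 0.047 SE, edgeR adjusted p = 1.27e-07 in WT and -0.47 ± 0.047, adjusted p = 1.23e-08, in DKO. *Polr1a* (chr6:71909053-71984935, plus strand), the largest catalytic subunit, was at 275, 278, 272 and 265 CPM with DMSO and 233, 210.2, 226 and 214 CPM with torin1 in WT. Its DKO values were 213, 233, 223 and 229 CPM with DMSO and 196, 199, 199.8 and 216 CPM with torin1, which overlapped. *Polr1a* fell in WT (log2 fold change -0.30 ± 0.052 SE, edgeR adjusted p = 2.32e-05), and its change of -0.15 in DKO did not reach 1.2-fold. Nonsense-mediated decay transcripts took 49.0 to 55.7% of the *Polr1a* counts.

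*Polr1b* (chr2:129100995-129126594, plus strand), the partner of *Polr1a* in the catalytic core, was at 88.0, 84.4, 86.9 and 80.7 CPM with DMSO and 64.2, 65.3, 76.5 and 71.6 CPM with torin1 in WT. With the same treatments DKO cells held 87.8, 124, 109 and 108 CPM and 87.1, 84.6, 87.4 and 99.2 CPM. The WT groups were separate and the DKO groups overlapped, with changes of -0.29 ± 0.095 SE, edgeR adjusted p = 0.0102 in WT and -0.26, short of 1.2-fold, in DKO. *Ubtf*, which opens ribosomal DNA for transcription, had values of -0.19 in WT and -0.16 in DKO and was not called in either.

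All 3 box C/D genes fell with torin1 in both genotypes. *Nop58* (chr1:59684971-59719044, plus strand), a core protein of these particles, was at 212, 211, 208 and 223 CPM with DMSO in WT and at 148, 148, 159 and 149 CPM with torin1. In DKO cells *Nop58* moved from 225, 283, 255 and 251 CPM to 178, 176, 186 and 202 CPM. Neither genotype had an overlap between treatments, and the log2 fold changes were -0.50 ± 0.071 SE, edgeR adjusted p = 2e-06 in WT and -0.45 ± 0.071, adjusted p = 9.32e-06, in DKO. *Fbl* (chr7:28169710-28179269, plus strand), which encodes the methyltransferase fibrillarin, was at 203, 206, 200.4 and 217 CPM with DMSO and 139, 145, 166 and 144 CPM with torin1 in WT. The DKO libraries gave 166, 205, 190.4 and 186 CPM and 130.3, 140.1, 135 and 146 CPM, again without overlap, and the changes were -0.48 ± 0.064 SE, edgeR adjusted p = 1.02e-06 in WT and -0.44 ± 0.064, adjusted p = 3.35e-06, in DKO. *Nop56*, their partner, fell by 0.41 and 0.30 on the log2 scale in WT and DKO.

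The box H/ACA genes encode the pseudouridine synthase dyskerin (*Dkc1*) and its 3 small partners. *Nhp2* (chr11:51619735-51623714, plus strand) was at 148, 127, 141 and 134 CPM with DMSO in WT and at 70.8, 77.6, 90.6 and 83.2 CPM with torin1. Its levels in DKO were 126, 157, 149 and 153 CPM with DMSO and 97.5, 95.7, 98.7 and 105 CPM with torin1. *Nhp2* was thus lower in every torin1 library than in any DMSO library of the same genotype, with log2 fold changes of -0.77 ± 0.083 SE, edgeR adjusted p = 3.32e-08 in WT and -0.56 ± 0.082, adjusted p = 3.87e-06, in DKO. *Nop10* (chr2:112261926-112263269, plus strand) was at 40.8, 39.8, 46.8 and 45.1 CPM with DMSO and 26.6, 27.4, 28.7 and 27.9 CPM with torin1 in WT, and at 28.2, 29.5, 33.4 and 36.1 CPM and 24.2, 22.2, 23.9 and 20.6 CPM in DKO. The treatments were separate in both genotypes, with changes of -0.64 ± 0.087 SE, edgeR adjusted p = 1.26e-06 in WT and -0.48 ± 0.089, adjusted p = 6.76e-05, in DKO. *Dkc1* fell by 0.53 and 0.30 on the log2 scale in WT and DKO, and *Gar1* fell in WT by 0.32 and had a value of -0.17, not called, in DKO.

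The scaffold genes held 3 that fell with torin1 in WT and also *Npm1*, which stood above its DMSO level. *Nolc1* (chr19:46075863-46085530, plus strand), a phosphoprotein that chaperones snoRNPs, was at 485, 457, 463 and 468 CPM with DMSO and 239.7, 249.9, 284 and 253 CPM with torin1 in WT. In DKO it was at 356, 439, 410.1 and 409 CPM and 237, 219.3, 232 and 255 CPM. *Nolc1* fell without overlap in both, by log2 fold changes of -0.87 ± 0.069 SE, edgeR adjusted p = 2.94e-10 in WT and -0.77 ± 0.069, adjusted p = 2.19e-09, in DKO. *Npm1* (chr11:33152287-33163206, minus strand), which encodes nucleophosmin, a scaffold of the outer nucleolus, was at 1807, 1688, 1693 and 1826 CPM with DMSO and 1865, 1998, 2227 and 1997 CPM with torin1 in WT, and at 1459, 1658, 1585 and 1562 CPM and 1674, 1841, 1769 and 1841 CPM in DKO. All torin1 libraries were above all DMSO libraries for *Npm1* in each genotype, with values of 0.21 ± 0.055 SE, edgeR adjusted p = 0.00262 in WT and 0.19 ± 0.055, adjusted p = 0.00615, in DKO, which did not reach 1.2-fold. *Npm1* was in this way the only one of the 42 genes with torin1 libraries entirely above the DMSO libraries. *Gnl3* (chr14:31012433-31019152, minus strand), the GTPase nucleostemin, was at 114, 106, 112 and 109.8 CPM with DMSO and 76.5, 79.8, 101.8 and 87.2 CPM with torin1 in WT. The corresponding DKO values of 81.4, 105, 94.2 and 92.9 CPM and 78.4, 69.4, 77.8 and 85.6 CPM overlapped, and the changes were -0.36 ± 0.082 SE, edgeR adjusted p = 0.00067 in WT and -0.26, not called, in DKO.

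Of the small subunit genes, *Rrp12* and *Pno1* had the largest torin1 changes in WT. *Rrp12* (chr19:41862851-41896173, minus strand), needed for maturation and export of the small subunit, was at 137, 128, 128 and 132 CPM with DMSO and 61.8, 67.5, 74.4 and 67.1 CPM with torin1 in WT. In DKO cells the values were 97.8, 129, 115 and 105 CPM with DMSO and 61.9, 63.1, 69.6 and 71.3 CPM with torin1. *Rrp12* was 1.94-fold lower in WT (log2 fold change -0.95 ± 0.097 SE, edgeR adjusted p = 1.41e-08) and 1.68-fold lower in DKO (-0.75 ± 0.097, adjusted p = 5.89e-07), with no overlap. *Rrp9* (chr9:106475963-106485424, plus strand), a WD-repeat protein of the processome, was at 88.4, 94.4, 87.9 and 84.5 CPM and 55.9, 55.6, 63.3 and 61.2 CPM in WT and at 109, 133, 124 and 120.2 CPM and 83.8, 80.2, 85.4 and 90.9 CPM in DKO with DMSO and torin1. It fell by 0.59 in WT and by 0.52 in DKO on the log2 scale, without overlap.

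*Pno1* and *Nob1* act together, since PNO1 sits at the end of the small subunit RNA that the nuclease NOB1 trims. *Nob1* (chr8:107412486-107425051, minus strand) was at 99.3, 90.1, 94.2 and 93.9 CPM with DMSO and 87.8, 94.96, 103 and 98.6 CPM with torin1 in WT, and at 92.0, 106, 112 and 103 CPM and 107, 106, 109 and 109 CPM in DKO. These groups overlapped, with values of 0.027 (95% confidence interval -0.096 to 0.15) in WT and 0.066 (-0.057 to 0.19) in DKO. *Pno1* fell in both genotypes and is described with the difference between them. *Wdr75* (chr1:45795166-45823619, plus strand), a processome subunit, was at 74.1, 75.3, 74.8 and 76.2 CPM and 59.9, 58.7, 68.2 and 60.4 CPM in WT and at 93.0, 112, 101 and 100.4 CPM and 89.8, 84.4, 87.8 and 99.6 CPM in DKO with DMSO and torin1. It fell by 0.28 on the log2 scale in WT, and its value of -0.17 in DKO was not called.

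The large subunit genes included the PeBoW complex of *Pes1*, *Bop1* and *Wdr12*, which processes the large subunit RNA. *Bop1* (chr15:76452989-76477277, minus strand) was at 265, 264, 259.6 and 262 CPM with DMSO and 145, 149, 148 and 149.8 CPM with torin1 in WT. The DKO libraries held 201, 227, 226 and 205 CPM with DMSO and 129, 132, 139 and 131 CPM with torin1. *Bop1* fell without overlap, by log2 fold changes of -0.83 ± 0.046 SE, edgeR adjusted p = 7.08e-13 in WT and -0.69 ± 0.046, adjusted p = 1.42e-11, in DKO. *Pes1* (chr11:3963975-3980004, plus strand) was at 192, 194, 183 and 191 CPM and 182, 183, 197 and 181 CPM in WT and at 178, 204, 194 and 189.5 CPM and 189.5, 199, 206 and 209 CPM in DKO with DMSO and torin1, and these groups overlapped. Its changes were -0.033 (-0.13 to 0.063) in WT and 0.072 (-0.024 to 0.17) in DKO, and *Wdr12* stood at -0.25 in WT, not called, and fell by 0.41 in DKO.

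*Rrs1* and *Nop16* had large changes among the large subunit factors as well. *Rrs1* (chr1:9545408-9547455, plus strand), which helps to load a ribonucleoprotein of the large subunit, was at 90.6, 84.0, 89.2 and 83.2 CPM with DMSO and 40.1, 43.0, 51.1 and 45.4 CPM with torin1 in WT. In DKO its values were 114, 160.4, 139 and 145 CPM and 82.6, 71.7, 83.6 and 92.6 CPM. The fall was 1.93-fold in WT (log2 fold change -0.95 ± 0.11 SE, edgeR adjusted p = 1.33e-07) and 1.69-fold in DKO (-0.76 ± 0.11, adjusted p = 3.13e-06), with no overlap. *Nop16* (chr13:54584185-54590090, minus strand), a nucleolar assembly factor, was at 68.9, 64.3, 64.9 and 63.5 CPM and 33.9, 33.6, 43.0 and 36.2 CPM in WT and at 55.1, 68.0, 65.1 and 64.6 CPM and 39.9, 36.2, 39.3 and 40.9 CPM in DKO with DMSO and torin1. *Nop16* fell by 0.83 in WT and 0.69 in DKO on the log2 scale, again without overlap. *Noc2l* (chr4:156236010-156247616, plus strand) and *Noc3l* (chr19:38788128-38819237, minus strand), whose products bind each other on the large subunit precursor, were not called with torin1. *Noc2l* was at 245, 247, 234 and 237 CPM with DMSO and 227, 233, 246 and 230.0 CPM with torin1 in WT, a change of -0.042, and *Noc3l* was at 72.3, 73.0, 71.7 and 77.3 CPM and 69.6, 68.8, 75.7 and 69.5 CPM, a change of -0.053.

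**Figure D1:**
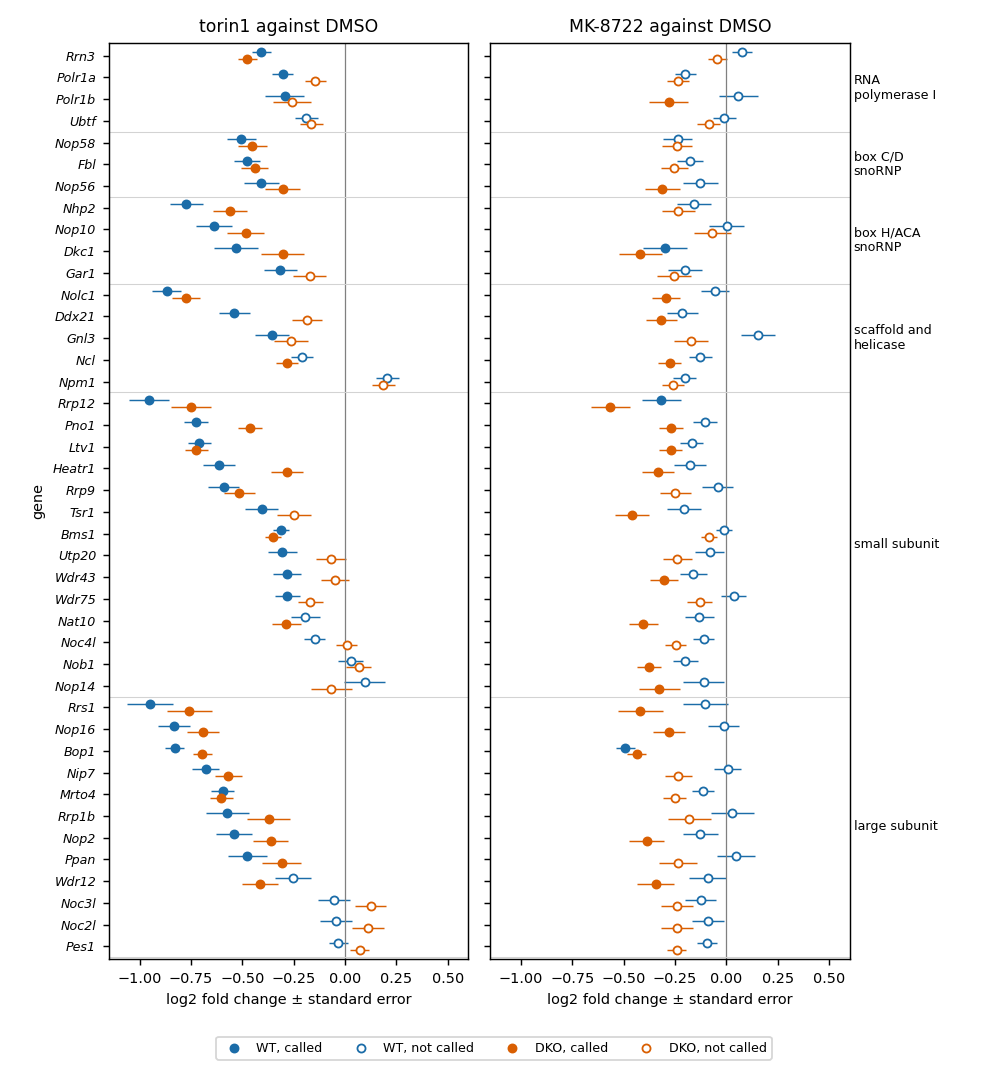
Log2 fold change against DMSO (horizontal axis) of the 42 genes, ordered by role, for torin1 (left) and MK-8722 (right), with WT in blue and DKO in orange, bars for the SE and filled points for genes called at an adjusted p under 0.05 and at least 1.2-fold. Torin1 points lie mostly to the left of 0 in both genotypes, from -0.95 (*Rrp12*, WT) to 0.21 (*Npm1*, WT), while with MK-8722 3 WT and 20 DKO points are filled.

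MK-8722 in WT cells lowered 3 of the 42 genes, *Dkc1*, *Rrp12* and *Bop1*, and raised 0, compared with 5.87% and 10.3% of all genes. The median log2 fold change was -0.11, that of all genes -0.01, and 34 of the 42 were below 0. The 4 libraries with MK-8722 lay below the 4 with DMSO for 15 genes (14.8% of all genes) and above them for 1 gene, *Gnl3* (15% of all genes). No gene was called higher by edgeR, DESeq2 or limma-voom, and 0 were higher at an unadjusted p under 0.05. Without the WT library of passage 7 with MK-8722 (replicate 4), 6 genes were called lower. Over all genes that fit called 1085 lower, where the main fit called 904.

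In DKO cells MK-8722 lowered 20 of the 42 genes and raised 0, compared with 3.21% and 5.47% of all genes. All 42 were below 0, with a median of -0.26 where that of all genes was 0. By role, 1 of 4 RNA polymerase I genes, 1 of 3 box C/D and 1 of 4 box H/ACA genes, 3 of 5 scaffold genes, 9 of 14 small subunit genes and 5 of 12 large subunit genes were lower. Single libraries moved this count, to 36 without the MK-8722 library of passage 8 (replicate 4), 34 without the DMSO library of passage 11 (replicate 1), 12 without the MK-8722 library of passage 11 (replicate 2) and 11 without the DMSO library of passage 8 (replicate 2). Without all 3 passage 8 libraries of the DKO line 32 genes were lower. Over all genes these 5 fits called 715, 604, 432, 431 and 599 lower, in the same order, where the main fit called 495. Groups did not overlap for 9 genes, all lower, compared with 9.64% of all genes, and within each passage the median difference from DMSO was between -0.21 and -0.33. Again 0 genes were higher at an unadjusted p under 0.05, and DESeq2 and limma-voom called 0 higher.

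*Bop1*, *Dkc1* and *Rrp12* were lower with each drug in each genotype. With MK-8722 *Bop1* was at 184, 178, 193 and 192 CPM in WT and 148, 154, 158 and 174 CPM in DKO, below all DMSO libraries of the same genotype, with log2 fold changes of -0.49 ± 0.045 SE, edgeR adjusted p = 1.87e-08 in WT and -0.44 ± 0.045, adjusted p = 1.25e-06, in DKO. *Rrp12* was at 97.5, 104, 105 and 114 CPM in WT and 67.6, 68.5, 69.3 and 96.9 CPM in DKO, also below all DMSO libraries, with changes of -0.32 ± 0.096 SE, edgeR adjusted p = 0.0139 in WT and -0.56 ± 0.096, adjusted p = 0.000257, in DKO. *Dkc1* was at 204, 188, 191 and 191 CPM with DMSO and 148, 149.9, 153 and 178 CPM with MK-8722 in WT, and at 196, 277, 224 and 241 CPM and 169, 150.0, 160.2 and 223 CPM in DKO. The WT groups of *Dkc1* were separate and the DKO groups overlapped, with changes of -0.30 ± 0.11 SE, edgeR adjusted p = 0.0352 in WT and -0.42 ± 0.11, adjusted p = 0.00674, in DKO.

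Several genes with large torin1 changes were close to their DMSO levels with MK-8722 in WT. *Nop16* was at 61.3, 62.9, 63.6 and 71.3 CPM in WT with MK-8722 (log2 fold change -0.014, 95% confidence interval -0.17 to 0.15) and *Nop10* at 44.7, 35.2, 49.8 and 42.9 CPM (0.002, -0.18 to 0.18). *Rrn3* was at 115, 115, 121 and 127 CPM, a value of 0.076 (-0.023 to 0.17), and *Nolc1* at 436, 449, 445 and 473 CPM, a value of -0.055 (-0.20 to 0.088). All 4 overlapped with DMSO. *Rrs1* was at 74.6, 79.7, 81.3 and 87.6 CPM (-0.10), *Nhp2* at 121, 113, 124 and 135 CPM (-0.16) and *Rrp9* at 78.0, 93.3, 82.9 and 90.7 CPM (-0.042), none of them called and each overlapping with DMSO. *Nop58* at 168, 178, 174 and 206 CPM (-0.24), *Fbl* at 170.3, 180.2, 186 and 194 CPM (-0.18) and *Polr1a* at 233, 240.5, 232 and 245 CPM (-0.20) were below every DMSO library, though by less than 1.2-fold.

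Their DKO libraries with MK-8722 were lower in more cases. *Nolc1* was at 324, 294, 318 and 381 CPM, *Nop16* at 51.0, 46.1, 53.9 and 57.4 CPM and *Rrs1* at 103, 84.2, 99.8 and 131 CPM, and each fell, by 0.29, 0.28 and 0.42 on the log2 scale, with the library of passage 8 (replicate 4) overlapping DMSO. *Nob1* was at 80.1, 83.7, 81.6 and 83.5 CPM in WT and at 77.9, 74.7, 74.7 and 90.4 CPM in DKO, and the DKO change was -0.38 ± 0.060 SE, edgeR adjusted p = 0.000138, without overlap. The snoRNP and polymerase genes *Nop10* at 30.8, 29.1, 32.8 and 28.6 CPM (-0.068), *Nhp2* at 124, 109, 121 and 143 CPM (-0.23), *Nop58* at 207, 195, 212 and 244 CPM (-0.24) and *Fbl* at 147, 151, 155 and 174 CPM (-0.25) were not called in DKO. *Rrn3* at 129, 129, 136 and 142 CPM (-0.044), *Polr1a* at 184, 181, 178 and 219.2 CPM (-0.23) and *Rrp9* at 99.0, 92.9, 97.6 and 120.1 CPM (-0.25) were not called either, and all of these overlapped with DMSO.

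*Npm1* stood below its DMSO mean with MK-8722 and above it with torin1, by less than 1.2-fold each. With MK-8722 it was at 1443, 1461, 1499 and 1688 CPM in WT and 1279.8, 1254, 1298 and 1404 CPM in DKO, values of -0.20 ± 0.055 SE, edgeR adjusted p = 0.0067 in WT and -0.26 ± 0.055, adjusted p = 0.00189, in DKO. *Pes1* was at 173, 172, 182 and 184 CPM in WT (-0.094) and 158, 153, 159 and 176 CPM in DKO (-0.24), and *Noc2l* at 218, 229, 222 and 237 CPM (-0.090) and 189.7, 176, 182 and 236 CPM (-0.24), none of them called. *Noc3l*, at 61.6, 70.7, 65.4 and 72.1 CPM (-0.13) and 48.6, 44.6, 49.9 and 58.8 CPM (-0.24), and *Wdr75*, at 71.5, 80.6, 75.4 and 80.3 CPM (0.035) and 90.5, 89.2, 90.8 and 101.7 CPM (-0.13), were not called.

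**Figure D2:**
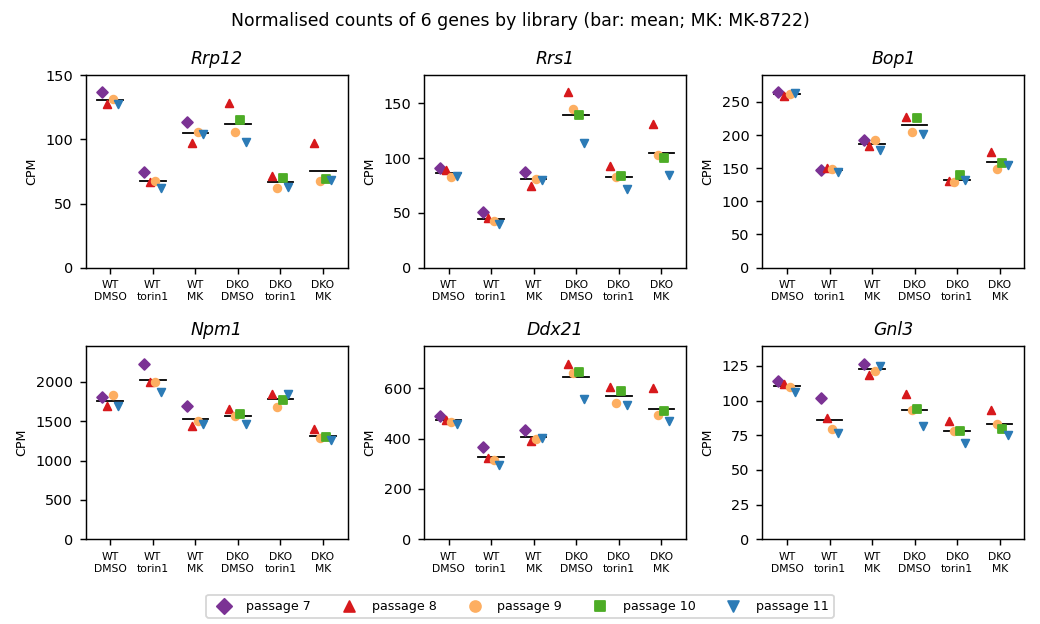
CPM (vertical axes, linear) of *Rrp12*, *Rrs1*, *Bop1*, *Npm1*, *Ddx21* and *Gnl3* in each of the 24 libraries, by genotype and treatment, with a symbol for each passage and a bar at the mean of 4 libraries. Torin1 libraries of *Rrp12*, *Rrs1* and *Bop1* lie below DMSO in both genotypes, and those of *Npm1* lie above.

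Whether the knockout changed a drug response was tested as the difference between the responses of the 2 genotypes. With torin1, 3 of the 42 genes responded differently, *Ddx21*, *Heatr1* and *Pno1*, each falling less in DKO than in WT, and 0 in the other direction, compared with 4.68% and 6.33% of all genes. Toward a stronger fall in DKO, 0 genes had an unadjusted p under 0.05 and DESeq2 and limma-voom called 0. The median difference was 0.12, that of all genes -0.01, and 33 of 42 genes were not below 0. Calls depended on single libraries, with 0 genes without the WT torin1 library of passage 9 (replicate 2), 5 without that of passage 7 (replicate 3), and 1 when any single DKO library of replicates 1 and 3 with DMSO or of replicates 3 and 4 with torin1 was left out.

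*Ddx21* (chr10:62580251-62602281, minus strand), an RNA helicase of the nucleolus, was at 489, 458, 474 and 467 CPM with DMSO and 295, 315, 368 and 322 CPM with torin1 in WT. In DKO it was at 555, 696, 666 and 662 CPM with DMSO and 543, 532, 587 and 606 CPM with torin1, which overlapped. *Ddx21* fell by 0.54 on the log2 scale in WT, its value in DKO was -0.19, and the difference was 0.35 ± 0.11 SE, edgeR adjusted p = 0.0255. *Heatr1* (chr13:12395027-12440289, plus strand), a large processome subunit that also supports transcription by RNA polymerase I, was at 147, 137, 137 and 132 CPM with DMSO and 84.2, 84.9, 101 and 91.8 CPM with torin1 in WT, and at 110.0, 130.3, 124 and 117 CPM and 92.2, 94.9, 102.05 and 107 CPM in DKO. Its treatments were separate in both genotypes, with falls of 0.61 in WT and 0.28 in DKO on the log2 scale and a difference of 0.33 ± 0.11 SE, edgeR adjusted p = 0.0423. *Pno1* (chr11:17203198-17211568, minus strand) was at 64.1, 68.8, 68.0 and 69.0 CPM with DMSO and 39.3, 37.9, 45.6 and 40.2 CPM with torin1 in WT, and at 76.1, 88.2, 81.2 and 87.3 CPM and 56.4, 57.9, 62.5 and 64.7 CPM in DKO. It fell without overlap in both, by 0.73 and 0.46, with a difference of 0.26 ± 0.082 SE, edgeR adjusted p = 0.0309.

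With MK-8722, 0 of the 42 genes responded differently between the genotypes, compared with 4.08% of all genes lower and 1.42% higher. Toward a stronger fall in DKO 11 genes had an unadjusted p under 0.05 and toward a weaker fall 0, and DESeq2 and limma-voom called 0 in each direction. The median difference was -0.15 where that of all genes was 0.01, and 41 of 42 genes were below 0. The count of genes with a stronger fall in DKO was 9 without the DKO library of passage 8 with MK-8722 (replicate 4), 4 without the DKO library of passage 11 with DMSO (replicate 1), 5 without the passage 8 DKO libraries, and 7 with passage as a block. Over all genes these fits called 698, 648, 630 and 906 lower, in the same order, where the main fit called 628. Compared within their genotype, 22 of the 24 libraries resembled most a library of their own passage. The counts with and without the passage block, 7 and 0, are therefore given side by side. Whether any of the 42 genes is called with a differing MK-8722 response depends on this choice.

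The largest differences in the MK-8722 response were those of *Polr1b* and *Gnl3*. *Polr1b* was at 86.4, 86.2, 88.8 and 92.6 CPM with MK-8722 in WT and 84.0, 74.8, 85.5 and 109 CPM in DKO, changes of 0.058 and -0.28, the latter called, and a difference of -0.34 ± 0.13 SE, edgeR adjusted p = 0.16. *Gnl3* was at 118, 125, 121 and 127 CPM in WT, above all DMSO libraries, and at 83.4, 75.5, 79.6 and 93.0 CPM in DKO, overlapping them, values of 0.15 and -0.17 and a difference of -0.33 ± 0.12 SE, edgeR adjusted p = 0.107. *Ddx21* was at 391, 401, 399 and 436 CPM in WT and 492, 469, 509 and 599.6 CPM in DKO, a difference of -0.10 (-0.32 to 0.12). *Heatr1* was at 120.0, 120.3, 119 and 129.8 CPM and 91.0, 88.8, 86.9 and 115 CPM, a difference of -0.16 (-0.38 to 0.069), and *Pno1* at 59.7, 65.1, 62.8 and 63.6 CPM and 67.1, 66.2, 68.7 and 74.2 CPM, a difference of -0.17 (-0.33 to 0.004).

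**Figure D3:**
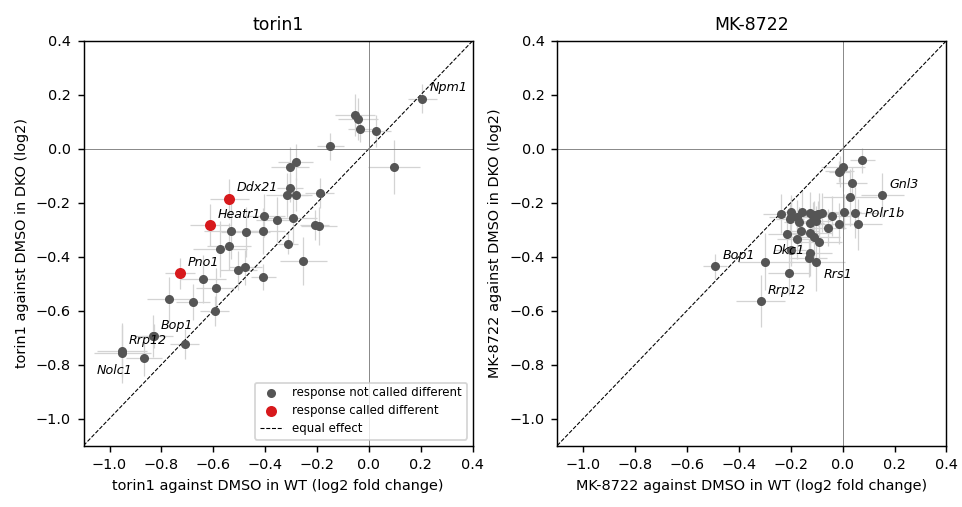
Log2 fold change against DMSO in WT (horizontal) and in DKO (vertical) of the 42 genes with torin1 (left) and MK-8722 (right), with SE bars, a dashed line where the changes are equal, and red for the genes whose responses were called different. The red torin1 points *Ddx21*, *Heatr1* and *Pno1* lie above the line, and with MK-8722 41 of 42 points lie below it.

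Ranked across the 42 genes, the torin1 changes of WT and DKO went together, with Pearson's r = 0.908 and Spearman's rho = 0.888 and 37 genes of the same sign. For MK-8722 the values were r = 0.678 and rho = 0.617 with 34 genes of the same sign. Genes are not independent replicates, the genotypes share passage numbers and sequencing, and these values are descriptions without a p. Across drugs, torin1 in WT and MK-8722 in DKO, which share no library, had r = 0.234 and rho = 0.157 with 39 genes of the same sign, and torin1 in DKO and MK-8722 in WT had r = 0.042 and rho = -0.07 with 28. All 42 genes were below 0 with MK-8722 in DKO. The same-sign counts of 34 and 39 therefore only repeat how many genes were below 0 in the other contrast.

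Without either drug, the share of the 42 genes higher in DKO was near that of all genes, and the share lower was under it. With DMSO, 12 of the 42 genes (28.6%) were higher and 4 (9.52%) lower in DKO, compared with 23.5% and 24.6% of all genes. The median difference was 0.09 and that of all genes -0.01. Scaling by library size alone gave 7 higher and 9 lower. That scaling also moved all genes, from 3621 higher and 3796 lower to 2943 and 4479. Without the DKO library of passage 8 with DMSO (replicate 2) 7 genes were higher, and without that of passage 11 (replicate 1) 1 gene was lower. By library, 13 genes were above and 9 below WT without overlap, where the share of all genes was 28.4% in either direction.

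*Rrs1* differed most, with a log2 difference between DKO and WT of 0.69 ± 0.11 SE, edgeR adjusted p = 9.36e-06, and the 4 DKO libraries given above were all over the 4 WT libraries. *Rrp9* was higher by 0.45 ± 0.075 (adjusted p = 1.39e-05, edgeR), *Ddx21* by 0.45, *Wdr75* by 0.44 and *Pno1* by 0.30 on the log2 scale, each without overlap. The other genes that were higher were *Wdr12*, *Polr1b*, *Ncl*, *Rrn3*, *Dkc1*, *Nop14* and *Ppan*, with differences from 0.28 to 0.40. Lower in DKO were *Nop10* (-0.44 ± 0.087 SE, edgeR adjusted p = 0.000133), *Noc3l* (-0.30), *Bop1* (-0.29) and *Polr1a* (-0.28), each without overlap. *Noc3l* was at 52.0, 66.3, 59.9 and 60.3 CPM with DMSO and 59.2, 62.6, 66.3 and 71.6 CPM with torin1 in DKO, and *Noc2l* at 197, 262, 231 and 235 CPM and 248.9, 228, 252 and 270.1 CPM. Genes within 1 role, such as the polymerase subunits *Polr1a* and *Polr1b*, were therefore found on opposite sides.

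With torin1, 14 genes were higher and 1, *Nop10*, was lower in DKO than in WT, compared with 24% and 27.8% of all genes. The median difference was 0.18, with -0.04 over all genes. Scaling by library size alone moved the median of all genes to -0.16 and that of the 42 genes to 0.056, and gave 9 higher and 5 lower. *Nop10* was not called without the WT torin1 library of passage 7 (replicate 3), nor without the DKO torin1 libraries of passage 11 (replicate 2) or passage 8 (replicate 4). In all 4 libraries 21 genes were above (28.6% of all genes) and 5 below WT (31.7%). *Rrs1* (0.88), *Ddx21* (0.80), *Pno1* (0.57), *Wdr75* (0.55) and *Rrp9* (0.53) led the higher genes on the log2 scale.

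With MK-8722, 9 genes (21.4%) were lower and 3 (7.14%) higher in DKO, both under the shares of all genes, 25.4% and 23.3%. The 3 higher genes were *Rrs1* (0.37), *Ddx21* (0.35) and *Wdr75* (0.27), and *Gnl3* (-0.57 ± 0.082 SE, edgeR adjusted p = 2.41e-06) and *Nop10* (-0.51) were lowest. Library-size scaling gave 2 higher and 17 lower, and moved all genes from 3588 higher and 3908 lower to 2894 and 4608. Without the DKO MK-8722 library of passage 8 (replicate 4) 15 genes were lower and 1 higher, and 5 were higher without the DKO MK-8722 library of passage 11 (replicate 2) or the WT MK-8722 library of passage 7 (replicate 4). Libraries did not overlap for 12 genes below (27.9% of all genes) and 4 above (26.7%). *Ddx21*, *Rrs1* and *Wdr75* were the genes higher in DKO under all 3 treatments, and *Nop10* the one lower under all 3.

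**Figure D4:**
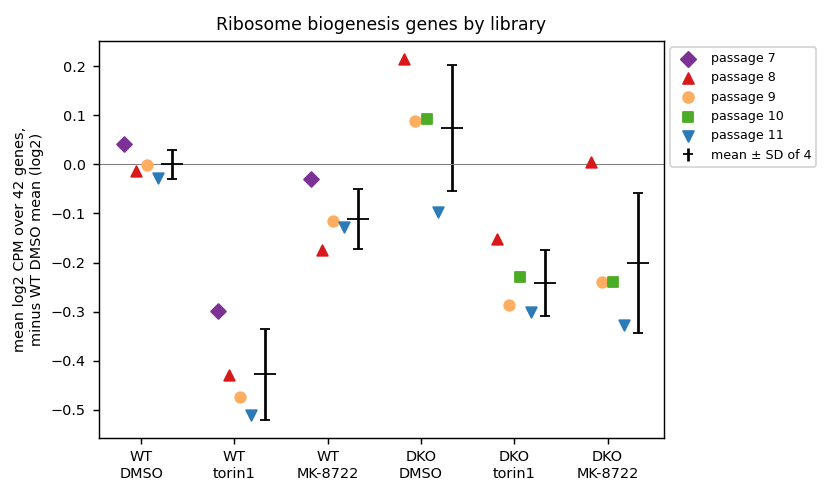
Mean log2 CPM of the 42 genes in each library, minus the mean of the WT DMSO libraries (vertical axis), by genotype and treatment, with a symbol for each passage and the mean ± SD of 4 libraries. Group means run from -0.43 (WT with torin1) to 0.075 (DKO with DMSO), and the passage 8 libraries are highest in each DKO group.

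As a mean over the 42 genes, log2 CPM relative to WT with DMSO was 0 ± 0.029 in that group itself (SD, n = 4), -0.43 ± 0.093 in WT with torin1 and -0.11 ± 0.061 in WT with MK-8722. The DKO means were 0.075 ± 0.13 under DMSO, -0.24 ± 0.067 under torin1 and -0.20 ± 0.14 under MK-8722. WT with torin1 lay wholly below WT with DMSO, and the DKO groups with torin1 and MK-8722 overlapped each other. The library of passage 8 was at 0.22 under DMSO, -0.15 under torin1 and 0.005 under MK-8722 in DKO, and that of passage 7 was at 0.041, -0.30 and -0.029 in WT. Within passages the median difference of torin1 from DMSO was -0.31 to -0.50 in WT and -0.19 to -0.36 in DKO, and that of MK-8722 in WT was -0.06 to -0.17, so that the direction held in each passage.

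The drugs were also set against each other at the doses used, which the labels do not give. In WT 25 of the 42 genes were lower with torin1 than with MK-8722 and 1, *Npm1*, was higher (0.41 ± 0.055 SE, edgeR adjusted p = 1.26e-06), compared with 20% and 24.9% of all genes. The median difference was -0.31, with 0.05 over all genes, and 27 genes were lower and 3 higher without overlap, where the shares of all genes were 25.6% and 26.5%. The largest differences were those of *Rrs1* (-0.85), *Nop16* (-0.82), *Nolc1* (-0.81), *Nop10* (-0.64) and *Rrp12* (-0.64).

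In DKO 11 genes were lower with torin1 than with MK-8722 and 5 were higher, compared with 19.3% and 21.1% of all genes, and the median was -0.06 with 0.00 over all genes. *Nolc1* (-0.48), *Rrn3* (-0.43), *Nop16* (-0.42) and *Nop10* (-0.42) were among the lower genes. The 5 higher genes were *Npm1* (0.44 ± 0.055 SE, edgeR adjusted p = 3.98e-07), *Nob1* (0.44), *Noc3l* (0.36), *Noc2l* (0.35) and *Pes1* (0.31), of which all but *Noc2l* did not overlap. Library-size scaling gave 9 lower and 8 higher, and moved all genes from 2973 lower and 3253 higher to 2748 and 3500. Without the DKO MK-8722 library of passage 8 (replicate 4) the counts were 7 lower and 9 higher, and 8 were higher without either of the DKO torin1 libraries of replicates 1 and 2. Without overlap 13 genes were lower (25.2% of all genes) and 5 higher (24.7%).

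The other 111 tested genes of the pathway, taken from a list of further polymerase, snoRNP and subunit assembly genes, were counted in the same way. Torin1 lowered 45 (40.5%) and raised 4 (3.6%) of them in WT, where the shares of all genes were 20.5% and 26.6%, and lowered 37 (33.3%) and raised 10 (9.01%) in DKO, where they were 20.2% and 23%. The 45 were 3 of 11 polymerase genes, 4 of 9 snoRNP genes, 18 of 44 small subunit genes and 20 of 47 large subunit genes. *Bysl*, a small subunit factor, fell most (-1.09 ± 0.052 SE, edgeR adjusted p = 7.61e-14), followed by *Ddx31* (-0.82), *Nol10* (-0.81) and *Tbl3* (-0.77), while *Taf1b* (0.73), *Zfp622* (0.61), *Polr1c* (0.48) and *Nop53* (0.36) rose. MK-8722 lowered 8 (7.21%) and raised 2 (1.8%) in WT, where 5.87% of all genes were lower and 10.3% higher. In DKO it lowered 27 (24.3%) and raised 0, compared with 3.21% and 5.47% of all genes, and *Cd3eap*, a polymerase subunit, had the largest fall (-0.60). With DMSO 27 of these genes (24.3%) were higher and 12 (10.8%) lower in DKO than in WT, compared with 23.5% and 24.6% of all genes. The responses differed at or under the shares of all genes, apart from lower calls with MK-8722, which were 5 (4.5%) against 4.08%. With torin1 2 (1.8%) were lower and 5 (4.5%) higher in DKO, where the shares of all genes were 6.33% and 4.68%.

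The transcript of *Myc*, which encodes the known activator of these genes, was not called lower with either drug in either genotype. The WT libraries gave 144, 138, 127 and 109.9 CPM under DMSO, 151, 127, 169.8 and 132 CPM under torin1 and 147, 184, 147 and 188 CPM under MK-8722. The corresponding DKO levels of *Myc* were 181, 258, 219.2 and 209.6 CPM, 257, 232, 259.8 and 302 CPM and 189, 185, 198 and 274 CPM. *Myc* rose with MK-8722 in WT (0.36 ± 0.13 SE, edgeR adjusted p = 0.0412), was not called with torin1 in WT (0.16) or DKO (0.28), and was higher in DKO than in WT with DMSO (0.74 ± 0.13 SE, edgeR adjusted p = 3.76e-05). Of the 7 regulators listed, torin1 raised 3 and lowered 0 in WT and raised 4 and lowered 1 in DKO, and MK-8722 raised 1 and lowered 1 in WT and raised 0 and lowered 2 in DKO, beside the shares of all genes given above for each contrast. Of the MYC antagonists, *Mnt* rose with torin1 by 0.46 in WT and 0.73 in DKO and *Mxi1* by 0.52 and 0.32 on the log2 scale. *Mxd4*, also an antagonist, rose with torin1 in DKO by 0.34, had a value of 0.22 in WT, and fell with MK-8722 in WT (-0.73). *Max*, the partner of MYC, fell in DKO with torin1 (-0.50) and MK-8722 (-0.31), and both of its responses differed from those in WT. *Maf1*, a repressor of RNA polymerase III that MTOR complex 1 is known to restrain, rose with torin1 by 0.37 in WT and 0.60 in DKO, and *Mybbp1a*, a nucleolar MYB-binding protein, fell with MK-8722 in DKO (-0.29). Whether these transcripts had any part in the changes of the ribosome biogenesis genes was not tested.

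The torin1 changes were also divided by the presence of an E-box in the windows printed above. In WT 7 of the 8 genes with an E-box were called lower, all but *Pes1*, and 20 of the 29 genes without one, with median log2 fold changes of -0.41 and -0.36. In DKO 4 of the 8 genes with an E-box and 17 of the 29 without one were called lower. The genes differ in level and number, and this split is a description without a test.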

How the data were processed

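The data were mRNA-seq libraries of 52-base paired reads from 24 cultures, in 6 groups of 4. The authors processed the reads with the nf-core/rnaseq pipeline, aligning with STAR to GRCm38 with Ensembl 102 genes and quantifying with salmon after UMI deduplication. The deposited gene table holds salmon's estimated counts, which need not be whole and were rounded here, and the TPM values deposited beside it were used for levels between genes. The study removed an unspecified batch, and as the labels give 1 batch none was removed here.

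A single model over all 6 groups was fitted with edgeR 4.0.16 in R 4.3.3 (TMM scaling, quasi-likelihood test, Benjamini-Hochberg adjustment), after a filter on low counts (filterByExpr, minimum count 10) that left 15401 of 55487 genes, and 11 contrasts were taken. Genes were called at an adjusted p below 0.05 and a change of 1.2-fold or more. The biological coefficient of variation was 10.7% on 18 residual degrees of freedom. CPM values are TMM-scaled. The steps were tested on simulated data. DESeq2 1.42.0 and limma-voom (limma 3.58.1) were alternatives, beside other scalings, filters and blocks and leaving out each library. Samples were grouped by the genotype and treatment in their labels. Replicates were checked for near-identity, and no pair of the same group agreed within sampling noise. No column was left without a sample.

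The 42 genes and the further gene lists were chosen with earlier results of these data known. Genes named with values in every library were, within each role, the 2 with the largest absolute change with torin1 in WT; the 2 with the largest difference in response to each drug, the largest change with MK-8722 in WT and the largest difference between genotypes with DMSO; and any gene called against the direction of most of the called genes. *Dkc1*, the MYC network genes and other genes given with a change alone were named after their values were seen. Promoter windows are those of RefSeq on GRCm38.p6, and gene positions are from GENCODE M21 on GRCm38.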

Additional observations from a re-analysis of the deposited data

Results flagged for a closer look

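In groups of 4 libraries, 15 of 258 groups of values had 1 library far from the other 3 by Dixon's test at the 95% level, and chance gives about 1 in 20. Of these, 5 were the DKO library of passage 8 with MK-8722 (replicate 4), which was high for *Polr1a* (219.2 CPM), *Heatr1* (115 CPM), *Rrp12* (96.9 CPM), *Nat10* (121 CPM) and *Wdr75* (101.7 CPM). For *Heatr1* the other 3 libraries were at 86.9 to 91.0 CPM, and for *Rrp12* at 67.6 to 69.3 CPM. The WT library of passage 7 with MK-8722 (replicate 4) was high for *Ubtf* (340.2 CPM), *Heatr1* (129.9 CPM), *Utp20* (204 CPM) and *Wdr12* (60.1 CPM). The WT library of passage 7 with torin1 (replicate 3) was high for *Nop58* (159 CPM), *Ltv1* (50.6 CPM), *Noc3l* (75.7 CPM) and *Pes1* (197 CPM). The other 2 were low values, of *Nip7* in the WT library of passage 8 with MK-8722 (77.3 CPM, where the others were at 85.4 to 86.4 CPM) and of *Mrto4* in the DKO library of passage 11 with DMSO (91.8 CPM, where the others were at 104.3 to 106.2 CPM).

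By the test of the difference itself, 3 of the 42 genes (7.14%) were called as falling less with torin1 in DKO than in WT. They were *Ddx21* (0.35 on the log2 scale), *Heatr1* (0.33) and *Pno1* (0.26). Of all genes, 4.68% were called higher in this contrast and 6.33% lower, where 0 of the 42 were lower. The 3 calls were not stable. Fits missing 1 library called between 0 and 5 genes, and library-size scaling and glmTreat called fewer than the main fit.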

How the results depend on the processing

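The number of genes lower with torin1 stayed within 1.5 times of 31 in WT (29 to 33 with each library left out) and of 25 in DKO (18 to 28) under every alternative run, as did the 25 lower with torin1 than with MK-8722 in WT (24 to 28). The other counts moved, and the balance of higher and lower calls turned for DKO against WT with DMSO under library-size scaling (12 and 4 to 7 and 9) and for torin1 against MK-8722 in DKO without the MK-8722 library of replicate 4 (5 and 11 to 9 and 7). Over all genes the first of these changes moved the higher and lower calls from 3621 and 3796 to 2943 and 4479. The second moved them from 3253 and 2973 to 3287 and 2907. With library-size scaling alone, 7 genes were higher and 9 lower in DKO with DMSO, 9 and 5 in DKO with torin1, and 17 lower with MK-8722; 1 had a differing response to torin1, 1 rose with torin1 in WT, and 3 in WT and 8 in DKO were higher with torin1 than with MK-8722. That scaling also moved the median difference of DKO from WT with torin1 to 0.056. With the false discovery rate alone, MK-8722 lowered 34 genes in DKO and 10 in WT, torin1 raised 1 in each genotype, 11 were lower in DKO with DMSO, 22 higher and 5 lower with torin1, 9 higher and 17 lower with MK-8722, and 2 in WT and 10 in DKO were higher with torin1 than with MK-8722. A test against a 1.2-fold change (glmTreat) left 2 genes lower with MK-8722 in DKO and 1 in WT, 0 differing responses to torin1, 4 higher and 1 lower in DKO with DMSO, 9 and 0 with torin1, 0 and 5 with MK-8722, and 2 higher and 4 lower with torin1 than with MK-8722 in DKO. Without the DKO libraries of passage 8, MK-8722 lowered 32 genes in DKO, 5 fell more in DKO, 7 were higher in DKO with DMSO, 0 were lower with torin1, 1 was higher and 15 lower with MK-8722, and 8 were higher with torin1 than with MK-8722. Requiring 10 counts in every library also gave 8 for the last, and no filter gave 0 lower in DKO with torin1.

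Leaving out each library in turn gave 11 to 36 genes lower with MK-8722 in DKO and 2 to 6 in WT, 0 to 5 with a weaker torin1 response and 0 to 9 with a stronger MK-8722 response in DKO, 7 to 16 higher and 1 to 6 lower in DKO with DMSO, 0 to 1 lower with torin1, 1 to 5 higher and 9 to 15 lower with MK-8722, and 5 to 9 higher and 7 to 12 lower with torin1 than with MK-8722 in DKO. Replicate numbers did not pair the libraries: deviations of same-numbered libraries correlated from -0.552 to 0.803 (median 0.0871), and 7 of 24 libraries correlated best with their own number, so the replicate block shares only a number. With the replicate block, torin1 lowered 31 genes in WT and 26 in DKO and MK-8722 lowered 3 and 20. Libraries of the same genotype and passage correlated from 0.036 to 0.803, and within their genotype 22 of 24 correlated best with their own passage. The main fit held no term for passage, so its p-values and counts take no account of the passages that the groups of a genotype share. With passage as a block 7 genes had a stronger MK-8722 response in DKO, and 906 of all genes were called lower in that contrast, where the main fit called 628. Over all genes that block called 3261 lower with torin1 in WT and 3218 in DKO, where the main fit called 3153 and 3111. With MK-8722 it called 1122 lower in WT and 653 in DKO, where the main fit called 904 and 495. The cause of these movements was not tested.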
